A study of Homo sapiens with 2 samples.

Results

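Interferon-stimulated genes and the sensors of foreign or misplaced nucleic acid were compared between parental melanoma A2058 cells and drug-selected A2058 cells. The members were taken from a list of 50 gene symbols, which covers interferon beta and its receptors, cytosolic sensors of RNA and DNA, interferon-activated transcription factors and the genes they switch on. They were found by the gene symbol of the array's annotation, and 49 of the 50 had a named probe, with 70 probes in all. STAT2 had none and was not analysed here. Of the 49, 48 were detected on at least 1 array, among 12832 detected genes, and IFNB1 was not detected on either.

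A2058 cells are a long-established line from a human melanoma. The drug-selected cells came out of selection with carmustine, an alkylating drug that damages DNA. The labels give a dose of 100 uM and a time of 6 months. The methods describe repeated cycles of treatment, drug removal and regrowth, with the dose raised step by step up to 100 uM. The parental cells were not selected and were kept in culture in parallel. RNA of 1 culture of each was hybridised to 1 Illumina bead array, so there was 1 drug-selected population and no difference has a replicate check. No p-value between groups is given, and precision is limited by having 1 array each.

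Signals are given as the average bead signal of a probe, as deposited, on the parental and then the drug-selected array. A probe was called detected on an array when its detection p-value against negative control beads was under 0.05. Folds are drug-selected over parental after background correction and quantile normalization, and higher or lower means a fold over 2 or under 0.5. The drug-selected array was the brighter one, with a median signal over 47323 probes of 63.1 against 52.5, so a raw signal can be larger there while the normalized fold is near 1. Where a probe was detected on 1 array only, the fold is a bound (at least N-fold). Its dim side is the probe's own log2 signal or the lowest log2 signal of any detected probe, whichever is higher. Within this pair of arrays, different probes of a gene detected on both had log2 differences with an SD of 0.305 over 2892 genes. This spread between probes holds no variation between repeated arrays or cultures, and it leaves out probes detected on 1 array only. The signal comes from a whole culture, so more expressing cells and more RNA per cell cannot be told apart.

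The melanocyte lineage label was checked against 10 markers. Of 8 detected, none was higher and 5 were lower in drug-selected cells, TYR 303-fold, MLANA 27.7-fold, PMEL 13.2-fold, MITF 6.45-fold and TYRP1 2.17-fold, while the lineage factor SOX10 was detected in both, 1.88-fold lower. TYR had signals of 7821 and 69.0, the latter close to background (detection p-value 0.0208), so the size of its fold is uncertain. Of 11 leukocyte markers with a named probe, PTPRC, CD3D, CD3E, NKG7 and CSF1R were detected on neither array. CD14 was 10.4-fold higher and LYZ passed 2-fold by its normalized signals only, and the normalized signals of the list summed to 1331 (parental) and 2818 (drug-selected), as given for the lists that follow. Most of both sums came from CD68, which was within 2-fold (signals of 1039 and 2507, a fold of 1.85), as were SPI1, MS4A1 and ITGAM. Of 8 detected fibroblast markers, 5 were higher and 2 lower, with sums of 3837 and 2234. PDGFRB was at least 6.65-fold, FAP 5.50-fold, ACTA2 3.07-fold, THY1 at least 2.58-fold and COL3A1 at least 2.31-fold higher, while DCN was 8.32-fold and LUM 3.06-fold lower, and COL1A2 was not detected. Of 3 detected endothelial markers, TEK was at least 5.74-fold and PECAM1 2.41-fold higher, with sums of 100.3 and 282, and CDH5, KDR and CLDN5 were not detected. Of 13 detected NF-kB target genes, 10 were higher, with sums of 4199.9 and 43119.8, led by IL6 (49.5-fold), CXCL2 (39.8-fold), IL1B (34.1-fold), IL1A (at least 28.1-fold) and CCL2 (at least 27.0-fold). CXCL8 (IL8), 26.9-fold higher with signals of 714 and 24053, had the largest signal of the NF-kB targets in drug-selected cells. The part of these lists in the differences described here was not tested.

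Cells detect viral or misplaced RNA with RIG-I-like receptors, which signal through MAVS on mitochondria, and cytosolic DNA with cGAS, which signals through STING on the endoplasmic reticulum. Both routes can switch on interferon beta. Secreted interferon binds the receptor pair IFNAR1 and IFNAR2, whose kinases JAK1 and TYK2 activate a complex that holds STAT2 and IRF9. This complex binds the interferon-stimulated response element (ISRE) in the promoters of antiviral genes.

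Among the 48 detected members, 22 were higher in drug-selected cells and none was lower, while the share over all detected genes was 7.12% higher and 5.84% lower. The members higher made up 45.8% of those detected. The members were dimmer in parental cells, with a median parental log2 signal of 6.63 against 7.48 over all detected genes. The share of all genes that were higher fell with the parental signal. At a parental log2 signal from 4.2 to 6.31, 13 of 21 members were higher, beside 12.8% of 4277 genes. From 6.31 to 8.56, 6 of 15 members were higher, beside 5.8% of genes. From 8.56 up, 3 of 12 members were higher, beside 2.76%. With every bound applied, 20 members were higher, beside 6.49% of all genes, and still none was lower, beside 5.68%. The median log2 difference of the members was 0.97, against -0.003 over all detected genes, and their lower and upper quartiles were 0.33 and 1.57, against -0.40 and 0.37. Without normalization between the arrays, which moved the median of all genes to 0.37, 31 members were higher and none lower, beside 1817 genes higher and 341 lower in place of 914 and 749. A positive difference was measured for 42 members and a negative one for 6, while 49.6% of all genes had a positive difference.

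Detection differed as well. Of the 48 members, 38 were detected on both arrays and 10 on the drug-selected array only, and no member was detected on the parental array only by its representative probe. These 10 made up 20.8% of the members, while 10.2% of all detected genes were detected on the drug-selected array only and 4.8% on the parental array only. Among the 38 members detected on both arrays, 15 were higher and none was lower, beside 5.65% of the genes detected on both that were higher.

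**Figure D1:**
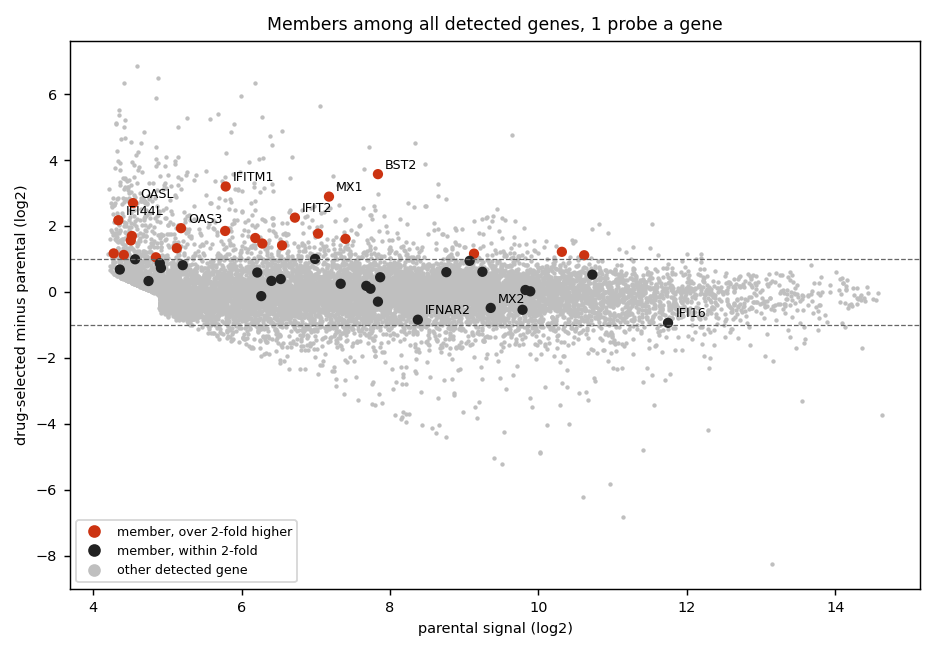
Each point is a detected gene, with its parental signal (log2) on the horizontal axis and the log2 difference of drug-selected minus parental cells on the vertical axis. The 22 members more than 2-fold higher (red) lie above the upper dashed line, and the other 26 (black) lie between the lines that mark 2-fold.

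No interferon gene was detected. IFNB1, the gene of interferon beta, had a signal of 36.4 in parental cells (detection p-value 0.918) and of 50.8 in drug-selected cells (detection p-value 0.627). With the other ligands of a list of type I, II and III interferons, none of the 30 probes of 21 genes was detected on either array. Their lowest detection p-value was 0.0909 in parental and 0.0623 in drug-selected cells. Interferon RNA was not detectable at the sensitivity of this array, which does not show that it is absent.

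The receptors and their kinases stayed within 2-fold. IFNAR1, one chain of the type I interferon receptor, had signals of 204 and 305, a fold of 1.13. IFNAR2, the other chain, had signals of 312 and 250.2, which is 1.80-fold lower after normalization (log2 difference -0.85). A second probe of IFNAR2 gave a log2 difference of -0.39, and 1 more was detected on neither array. The kinase TYK2 had signals of 784 and 728, a log2 difference of -0.54. The kinase JAK1 had signals of 223 and 252, a log2 difference of -0.30 that turned to 0.14 without normalization between the arrays. IFNAR2 and TYK2 were below 0 in all 11 alternative settings.

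The sensors also stayed within 2-fold, and 5 of the 7 had log2 differences between 0.72 and the threshold. These 5 depended on the setting, and IFIH1 passed 2-fold in 4 of 11 alternatives, RIGI and DHX58 in 2 of 11, CGAS in 2 of 10 and STING1 in 1 of 11. IFIH1 (MDA5), a sensor of long double-stranded RNA, had signals of 137 and 329, a log2 difference of 0.999 that lay just short of the threshold. RIGI, the sensor of RNA with a triphosphate end, was dim, with signals of 56.8 and 93.8 and a fold of 1.65. DHX58 (LGP2), which modulates both, had signals of 62.3 and 112, a fold of 1.75. All these RNA sensors thus differed in the same direction. CGAS, the cytosolic DNA sensor, was in parental cells not well above background (signal 49.1, detection p-value 0.266) and reached 90.2 in drug-selected cells, at least 1.58-fold higher. STING1, its adaptor, had signals of 494 and 1221, a fold of 1.92. Over all genes, 7.13% had a larger difference than IFIH1, 7.86% a larger one than STING1 and 11.5% a larger one than RIGI.

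The remaining sensor and adaptor went the other way. IFI16, a nuclear and cytosolic DNA-binding protein, had signals of 2964 and 2096 and was 1.92-fold lower, the largest negative difference of any member (log2 difference -0.94). In the authors' normalized intensity it lay just past the threshold, with a fold of 0.499. MAVS had signals of 95.0 and 118 by its brighter probe, a log2 difference of -0.13 that turned to 0.30 without normalization between the arrays. Its second probe, with signals of 64.6 and 63.4, was detected in parental cells only.

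Of the transcription factors, IRF1 and IRF7 were higher. IRF1, which is induced by interferons and by NF-kB, had signals of 91.2 and 297 and was 3.10-fold higher. IRF7, which drives interferon genes once it is activated, had signals of 109 and 323 and was 2.66-fold higher. A second IRF7 probe gave 66.6 and 129, a log2 difference of 0.92, and 1 more was detected on neither array. IRF9, the DNA-binding part of the complex with STAT2, had signals of 400.5 and 786 and a fold of 1.51.

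**Figure D2:**
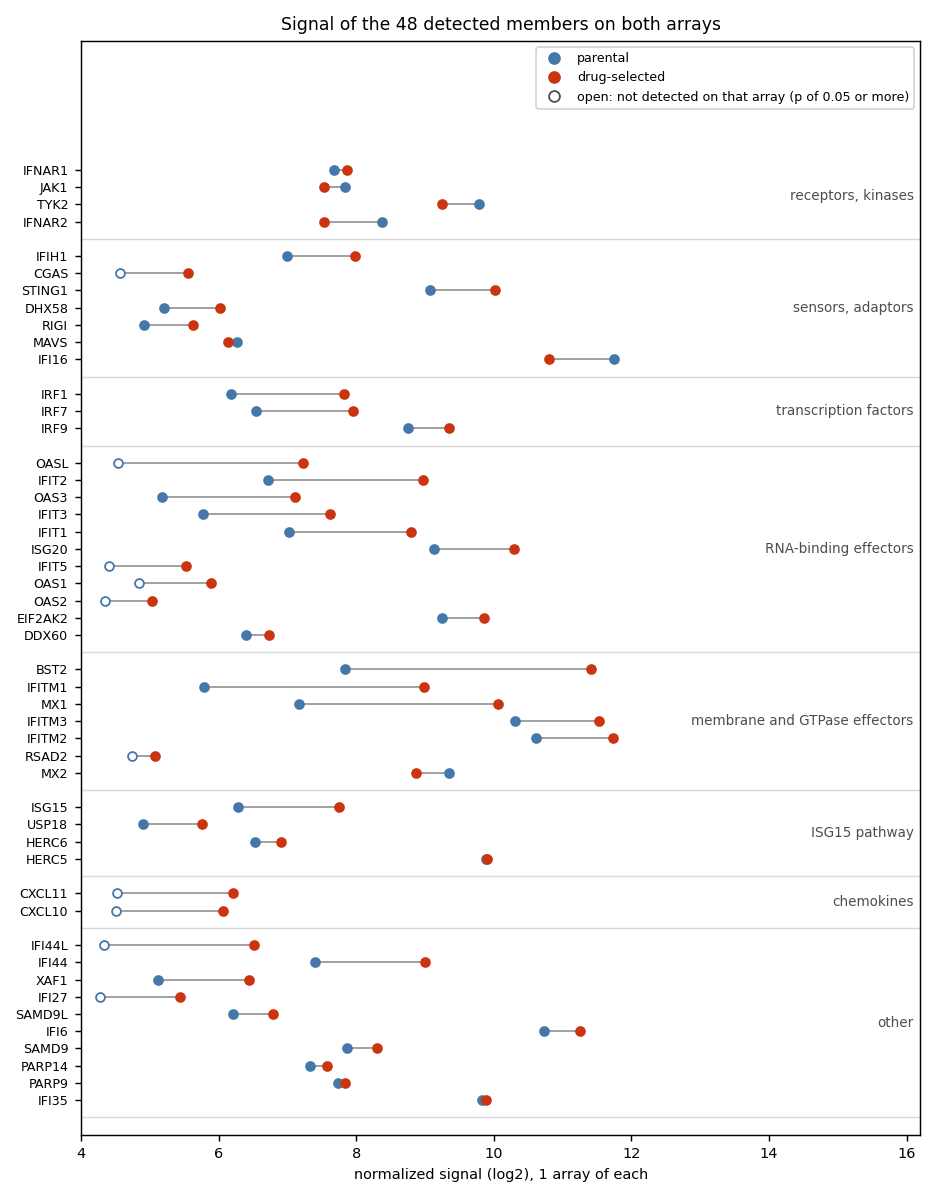
Normalized log2 signal of each detected member on the parental array (blue) and the drug-selected array (red), with 1 array of each, in groups by function. Filled points were detected and open points were not. Of effectors, 8 of 11 RNA-binding and 5 of 7 membrane and GTPase genes were more than 2-fold higher, beside 7.12% of all detected genes. The 8 count OAS1, whose probes disagreed, and IFIT5, at least 1.56-fold higher by its bound. No receptor, kinase, sensor or adaptor passed 2-fold in this setting.

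Of 7 membrane and GTPase effectors, 5 were higher. BST2 (tetherin), which holds budding virus particles to the cell surface, had signals of 223 and 3124. It was 11.9-fold higher, and 0.491% of all detected genes had a larger difference. Over the alternative settings its fold ranged from 10.5 to 15.9. IFITM1, which hinders virus entry, had signals of 76.8 and 612 and was 9.17-fold higher, with a range from 6.05 to 12.5. MX1, a GTPase that blocks virus replication, had signals of 153 and 1262 and was 7.41-fold higher. These members were the ones among the top 1% of all genes by log2 difference, which holds 3 members, and 16 members were in the top 5%.

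The promoter of BST2 is shown because BST2 had the largest difference among members detected on both arrays. It covers 250 bases before the annotated start and 50 bases from the start on, on the minus strand at chr19:17405581-17405880 of GRCh38.p14, from RefSeq. The capitals mark matches to the ISRE core, which is GAAA, any 2 bases, and GAAA again. Here a pair of matches overlap.
BST2: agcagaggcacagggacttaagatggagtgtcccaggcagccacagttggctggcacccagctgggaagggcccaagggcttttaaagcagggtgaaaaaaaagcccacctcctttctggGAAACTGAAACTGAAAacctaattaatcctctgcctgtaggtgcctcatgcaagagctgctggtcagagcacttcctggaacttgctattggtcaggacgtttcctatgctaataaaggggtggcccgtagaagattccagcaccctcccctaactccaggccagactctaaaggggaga

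IFITM2 and IFITM3 had smaller differences than IFITM1. IFITM3 had signals of 1129 and 3373, a fold of 2.32, and IFITM2 had signals of 1378 and 3925, a fold of 2.16. These are near-identical copies next to IFITM1 on chromosome 11, probe sequences were not used here, and their probes may bind each other's RNA. MX2, a relative of MX1 that acts at the nuclear envelope, had signals of 592 and 571 and a log2 difference of -0.49, below 0 in all 11 alternative settings. RSAD2 (viperin), an enzyme that makes a chain-terminating nucleotide, was in parental cells not well above background (signal 53.4) and had a signal of 74.0 in drug-selected cells, at least 1.13-fold higher.

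Of the 11 effectors that bind or degrade RNA, 8 were higher by normalized signals, which counts OAS1 and IFIT5 with the limits given at each. Some of the IFIT proteins capture viral RNA by its end. IFIT2 had signals of 119 and 607 and was 4.76-fold higher. IFIT1 had signals of 140.5 and 545 by its brighter probe and was 3.40-fold higher. Its other probe was detected on neither array. IFIT3 had signals of 76.6 and 265 and was 3.60-fold higher by its brightest probe. The other probes of IFIT3 gave log2 differences of 0.61 and 0.43. IFIT5 was in parental cells not well above background (signal 44.0) and had a signal of 89.4 in drug-selected cells. It passed 2-fold by its normalized signals but was at least 1.56-fold higher by its bound.

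The 2'-5'-oligoadenylate synthetases make a second messenger that activates RNA cleavage. OAS3 had signals of 61.9 and 197 by its brighter probe and was 3.82-fold higher, with a range over the alternatives from 2.46 to 6.04. The other OAS3 probe, with signals of 38.1 and 53.1, was detected on neither array. OASL, a relative that lacks this activity, was in parental cells not well above background (signal 48.3, detection p-value 0.299) and had a signal of 209 in drug-selected cells, at least 5.05-fold higher with the offset used here. Its normalized fold was 3.22 with an offset of 50 and 18.6 with an offset of 0, where it passed that of BST2. The other OASL probe, with signals of 41.6 and 62.1, was detected on neither array. OAS2 was dim, with signals of 41.5 and 72.8 by the only detected one of its 4 probes, at least 1.10-fold higher. OAS1 was the member nearest to the threshold from above, with a log2 difference of 1.05 by its brightest probe, and IFIH1 the nearest from below. The OAS1 probes disagreed. The brightest had signals of 55.5 and 105 and was detected in drug-selected cells only, with a bound just above 2-fold. A further probe, with signals of 44.5 and 82.3, was also detected in drug-selected cells only and gave a log2 difference of 0.91. The only one detected on both arrays had signals of 66.3 and 71.7 and gave a log2 difference of -0.39. No direction can therefore be given for OAS1, which is counted among the 22 by its brightest probe.

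The other genes of this group varied. ISG20, a nuclease that degrades single-stranded RNA, had signals of 511 and 1459.6 and was 2.23-fold higher. EIF2AK2 (PKR), a kinase that stops translation when it binds double-stranded RNA, had signals of 549.5 and 1092 and a fold of 1.53. DDX60, a helicase linked to RIG-I signalling, had signals of 101 and 159 and a fold of 1.26.

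**Figure D3:**
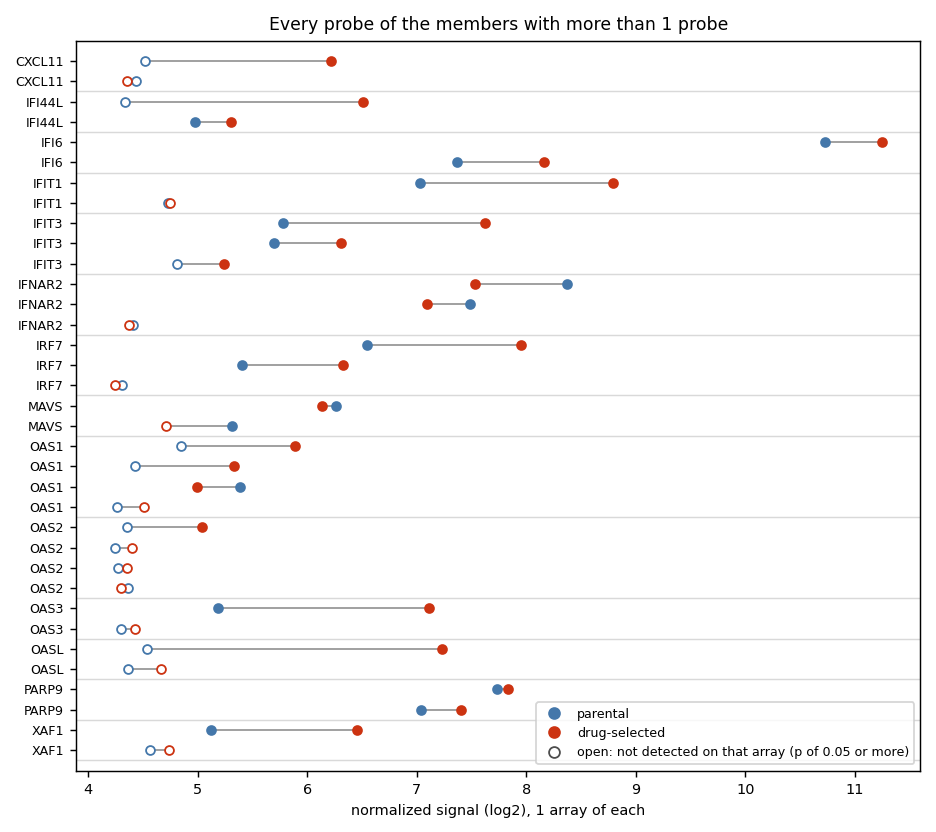
Normalized log2 signal of every probe of the members with more than 1 probe, on the parental (blue) and drug-selected (red) array, filled where detected. Of 8 members with at least 2 detected probes, 7 had all detected probes on the same side of 0, and OAS1 did not.

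Among the 8 members with at least 2 detected probes, 4 had some but not all probes past 2-fold. These were IFI44L, IFIT3, IRF7 and OAS1. The probes of IFI44L disagreed in size. The brighter was detected in drug-selected cells only, with signals of 40.5 and 142, at least 3.07-fold higher, and the dimmer gave 58.0 and 81.2, was detected on both arrays and had a log2 difference of 0.32. Probes of PARP9, IFI6 and IFNAR2 differed by less than 0.5 on the log2 scale within a gene.

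ISG15 is a small protein that is attached to other proteins like ubiquitin. Of 4 members of this pathway, 1 was higher. ISG15 itself had signals of 95.5 and 285 and was 2.76-fold higher. USP18, which removes ISG15 and restrains the receptor, was dim and had signals of 56.5 and 99.1, a fold of 1.82. The ligase HERC5, which attaches ISG15, had signals of 842 and 1134, a fold of 1.01 after normalization, and its relative HERC6 had a fold of 1.31. Among genes outside the list of members, UBA7, the enzyme that activates ISG15, was 4.45-fold higher, with signals of 97.0 and 439.8. UBE2L6, the next enzyme of that chain, was 2.58-fold higher, with signals of 423 and 1381.

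The chemokines CXCL10 and CXCL11 attract T cells through the receptor CXCR3. In parental cells neither was well above background. CXCL10 had signals of 47.4 and 114, at least 2.25-fold higher, and CXCL11 had signals of 47.8 and 123 by its brighter probe, at least 2.50-fold higher. The second CXCL11 probe was detected on neither array. Both signals in drug-selected cells remained low, and CXCL10 passed 2-fold in 7 of 10 alternative settings that gave a value and CXCL11 in 9 of 10. The normalized folds ranged from 1.78 to 7.59 for CXCL10 and from under 2 to 8.42 for CXCL11.

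Of the 10 other interferon-stimulated genes, 4 were higher by normalized signals and 3 with bounds. IFI44, a neighbour of IFI44L, had signals of 173 and 622 and was 3.05-fold higher. XAF1, which promotes cell death, had signals of 60.8 and 138 by its brighter probe and was 2.51-fold higher. The other XAF1 probe was not detected. IFI27 had signals of 36.7 and 86.1 and was in parental cells not well above background, at least 1.46-fold higher, so it passed 2-fold by its normalized signals only. IFI6 was within 2-fold by both of its probes, with signals of 1483 and 2815 and a fold of 1.44 by the brighter one. SAMD9L and SAMD9, which restrict poxviruses, had log2 differences of 0.59 and 0.44. The ADP-ribosyltransferase family members PARP14 and PARP9 had folds of 1.19 and 1.07, and IFI35 had a fold of 1.04.

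Many members lie in clusters of related genes. The order of genes was taken from RefSeq, and the values are those of the representative probe of each gene. On chromosome 10, IFIT2, IFIT3 and IFIT1 had log2 differences of 2.25, 1.85 and 1.77, and IFIT5 had at least 0.64. The other probes of IFIT3 gave smaller differences. On chromosome 12, OAS3 had 1.93 and OAS2 at least 0.14, beside OAS1, whose probes disagreed. On chromosome 1, IFI44 had 1.61 and IFI44L at least 1.62, while the other probe of IFI44L gave 0.32. On chromosome 4, CXCL10 had at least 1.17 and CXCL11 at least 1.32, and HERC6 and HERC5 had 0.39 and 0.02. On chromosome 21, MX2 and MX1 are neighbours with no other protein-coding gene between them and had -0.49 and 2.89, the widest gap of any such pair detected on both arrays.

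The promoters of the members were searched for the ISRE core on both strands, in the 300 bases around the annotated start that RefSeq gives on GRCh38.p14. A promoter was found for 39 of the 50 members, and the others were CGAS, DHX58, IFIT2, IFITM2, IFNAR2, IRF7, MX2, OAS2, OASL, STING1 and USP18. Of the 39, 21 held at least 1 match (53.8%), beside 3.65% of all 27305 promoters and 2.94% of those of detected genes. The members were listed for their link to interferon, so their share is not independent of that choice. Among the higher members 14 of 18 had a match (77.8%), and among those within 2-fold 7 of 19 (36.8%). Those 19 include the receptor IFNAR1, the kinases JAK1 and TYK2 and the adaptor MAVS, none with a match, so the groups also differ in the kinds of gene they hold. The gamma-activated site TTCNNNGAA, which reads the same on both strands, was found in 11 of the 39 (28.2%), beside 7.88% of all promoters. It was found in 6 of the 18 higher members and in 4 of the 19 within 2-fold. A match is a stretch of letters and was not tested for binding.

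The stretches below are shown to set higher members beside members within 2-fold that hold the same letters. Each has up to 15 bases on either side of the matches nearest to the start, on the strand of the gene, with the ISRE core or its reverse complement in capitals.
IFITM1, 9.17-fold, chr11:314019-314058, plus strand: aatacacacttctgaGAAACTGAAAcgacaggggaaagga
MX1, 7.41-fold, chr21:41420554-41420593, plus strand: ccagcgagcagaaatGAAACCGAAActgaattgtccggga
OAS3, 3.82-fold, chr12:112938447-112938486, plus strand: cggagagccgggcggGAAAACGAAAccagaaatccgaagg
IFIT1, 3.40-fold, chr10:89392492-89392544, plus strand: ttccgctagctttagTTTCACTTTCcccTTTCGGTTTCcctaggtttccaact
ISG15, 2.76-fold, chr1:1013369-1013414, plus strand: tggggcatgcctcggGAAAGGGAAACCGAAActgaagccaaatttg
ISG20, 2.23-fold, chr15:88638932-88638971, plus strand: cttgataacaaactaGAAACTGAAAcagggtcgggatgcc
SAMD9, 1.36-fold, chr7:93118091-93118130, minus strand: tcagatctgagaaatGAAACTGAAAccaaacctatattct
DDX60, 1.26-fold, chr4:168318781-168318820, minus strand: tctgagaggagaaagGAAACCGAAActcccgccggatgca
HERC5, 1.01-fold, chr4:88457030-88457069, plus strand: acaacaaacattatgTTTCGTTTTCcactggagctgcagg

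The capitals of SAMD9 and ISG20 have the same letters, as do a pair of overlapping matches in the BST2 promoter, although the folds of these genes range from 1.36 to 11.9. The capitals of IFITM1 also have these letters, and those of MX1 and DDX60 are the same as each other. HERC5 held 3 matches and was among the members with the smallest differences. Conversely, CXCL11, IRF1 and XAF1 were higher and had no match to the ISRE core in their window. Nor had OAS1, whose probes disagreed in direction. The windows of CXCL11, IRF1 and OAS1 did hold a gamma-activated site.

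**Figure D4:**
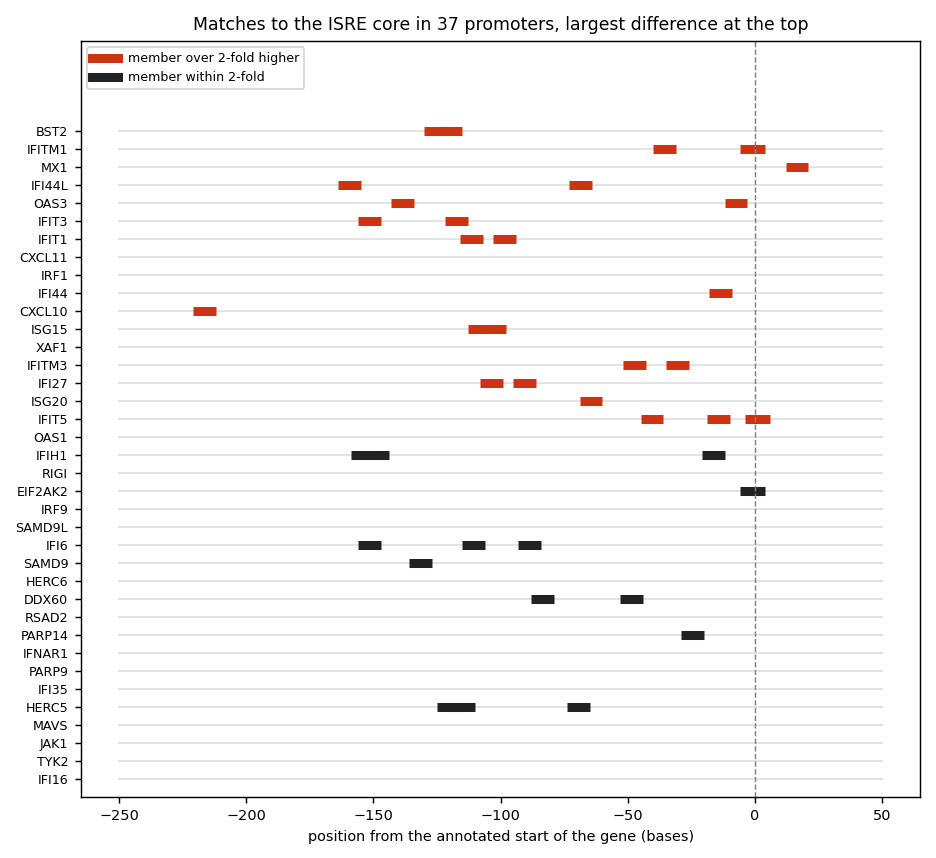
Positions of matches to the ISRE core in the promoters of 37 detected members, in bases from the annotated start (dashed line), ordered by log2 difference with the largest at the top. Matches are red for members more than 2-fold higher (14 of 18 promoters) and black for members within 2-fold (7 of 19).

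Genes of the same pathway outside the list of members were counted in the same way. Of 22 detected receptors, signal transducers and regulators, 1 was lower and none was higher, and their median difference on the log2 scale was 0.14. The lower one was JAK2, a kinase of the interferon gamma receptor, with signals of 213 and 147, 2.27-fold lower. SOCS1, a feedback inhibitor of these kinases, was dim, with signals of 57.5 and 102 and a fold of 1.83, and the kinase TBK1 and the factor IRF3, which act below the sensors, had folds of 1.10 and 1.18.

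Of 53 further interferon-stimulated genes with a named probe, 45 were detected. Of these 45, 8 were higher and 2 lower, beside 22 and 0 of 48 members. Over all detected genes, 7.12% were higher and 5.84% lower. The 8 count APOL2, which was at least 1.73-fold higher by its bound. The median difference of the 45 on the log2 scale was 0.21. EPSTI1 was in parental cells not well above background and had signals of 45.6 and 295, at least 7.55-fold higher. The chemokine CCL5 was 5.71-fold higher, with signals of 77.8 and 409. APOL3 was 3.03-fold higher and the immunoproteasome subunit PSMB9 was 2.84-fold higher. The lower ones were WARS1, a tRNA synthetase induced by interferon gamma, with signals of 3929.7 and 2545, 2.11-fold lower, and SLFN5, 2.10-fold lower, with signals of 112 and 89.2.

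**Figure D5:**
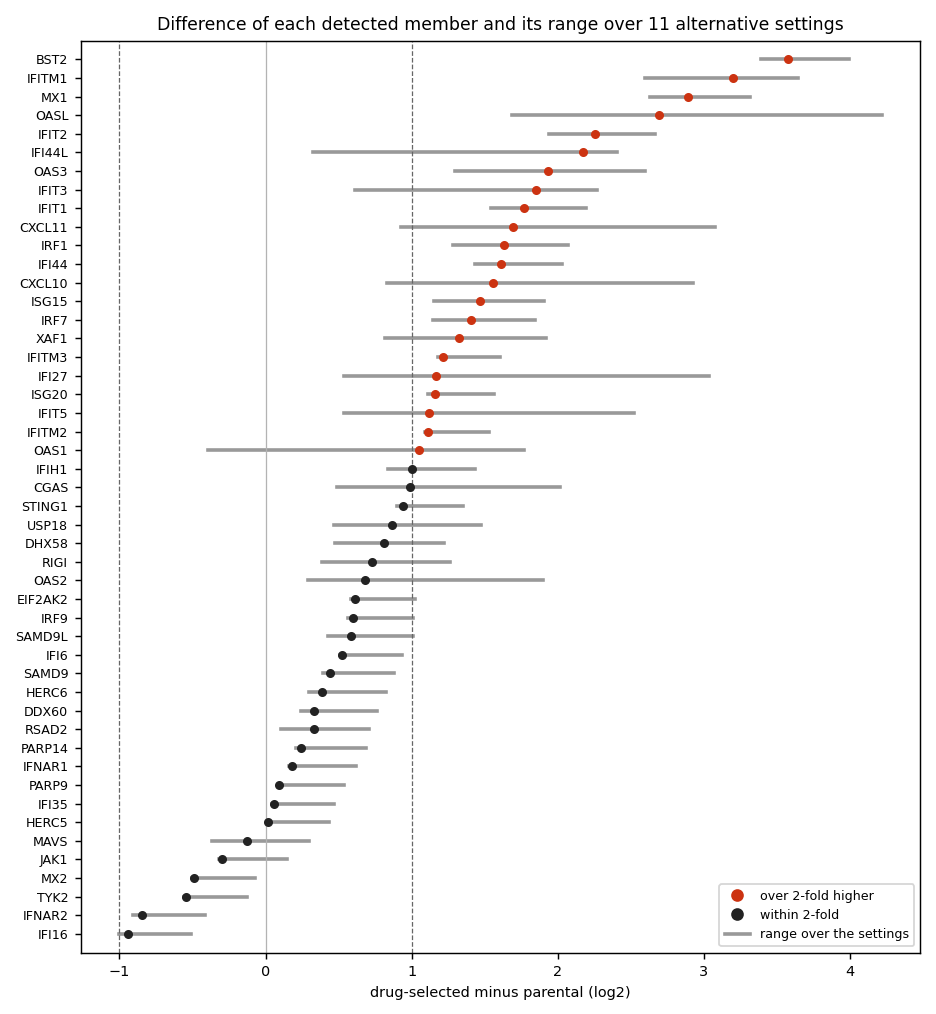
Log2 difference of drug-selected minus parental cells for each detected member (points, red for more than 2-fold higher) with the lowest and highest value over 11 alternative settings (bars). Dashed lines mark 2-fold. BST2, IFITM1, MX1 and IFIT2 stayed beyond the line in every setting, and the bar of OAS1 crosses 0.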

How the data were processed

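RNA of parental and drug-selected A2058 cells was measured on 1 Illumina HumanHT-12 v4 array each. The authors deposited the average intensity of each probe, neither background-subtracted nor normalized by its values, with a detection p-value that the deposited table gives beside each intensity. They also deposited normalized intensities (method not given in the sources used here). The raw values were background-corrected with limma 3.58.1 in R 4.3.3 (normexp from the detection p-values, offset 16), quantile normalized and then log2-transformed. Probes under a detection p-value of 0.05 on at least 1 array were kept, and for each gene the kept probe with the greatest mean log2 signal was used. Gene symbols came from the platform's annotation (30113 probes with 1 symbol, 8 with several, 17202 unnamed here), and 30074 were matched by gene identifier to RefSeq. Python 3.11.15, numpy 2.4.6, pandas 2.3.3 and matplotlib 3.10.9 were used for counts, motifs and figures. The scripts were tested on simulated data.

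The members and gene lists were chosen with earlier results of these data known. All members are reported, those past 2-fold with the signals of both arrays. From each list outside the members, up to 5 genes past 2-fold are named in each direction, by size. SOCS1, TBK1, IRF3, UBE2L6, CXCL8, APOL2 and SOX10 were picked after their values were seen. The methods word the fold as one of suspended to adherent cells. Neither label uses these words, so folds here are drug-selected over parental. Alternatives were other offsets (50 or 0), no normexp (floor 1), no normalization, scaling to the 75th percentile or the median, the authors' normalized intensity, other detection filters (both arrays, a p-value under 0.01, none), the median over probes, and thresholds of 1.5-fold and 3-fold.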

Additional observations from a re-analysis of the deposited data

How the results depend on the processing

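The members kept their direction as a group. The number higher was 22, and ranged from 15 to 31 over 11 alternative settings with the 2-fold threshold, and the median of the members minus that of all genes ranged from 0.55 to 1.21. The median of the members itself was 0.97, and fell to 0.55 when the offset was 50, 0.59 without normexp and 0.61 in the authors' normalized values. The cause was not tested. In the authors' normalized intensity 1 member, IFI16, was lower. At 3-fold 12 members were higher, and at 1.5-fold 2 were lower, IFNAR2 and IFI16. With detection required on both arrays OAS1 turned to -0.39, since another probe then stood for it. Of the 22 higher members, 14 passed 2-fold in every setting that gave a value, and IFI44L, IFIT3, CXCL11, CXCL10, XAF1, IFI27, IFIT5 and OAS1 did not. Another 10 members passed 2-fold in at least 1 alternative but not as reported, namely IFIH1, CGAS, STING1, RIGI, DHX58, USP18, OAS2, EIF2AK2, IRF9 and SAMD9L. Over all genes, 914 were higher and 749 lower, against 1501 and 1337 with an offset of 0, 1817 and 341 without normalization, 618 and 472 with an offset of 50, 653 and 480 without normexp, 1970 and 2037 at 1.5-fold, and 454 and 226 at 3-fold. Of 520 values of single members under the alternatives, 414 moved by less than the SD between probes of a gene, 52 moved up and 53 moved down. The remaining 1, OAS1 with detection on both arrays, was classed as reversed. MAVS and JAK1 also changed sign without normalization between the arrays, and these values are counted among those that moved up. No paired analysis was possible because each group has 1 array.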

Other observations

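The ISRE core was also looked up in detected genes outside the list of members. Of 280 such genes with a match in the promoter window, 21 were higher and 19 lower in drug-selected cells, and the median log2 difference was 0.02. Of 9937 detected genes with no match, 655 were higher and 580 lower, and the median was -0.003. These shares are a description of 2 arrays and were not tested.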
